A study of Mus musculus with 7 samples.

Results

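The 9 genes Dppa5a, Dppa2, Dppa4, L1td1, Utf1, Fbxo15, Sall4, Zscan10 and Lin28a, which are used as markers of mouse pluripotent cells, were followed across 7 RNA-seq libraries. They were chosen by name out of 29686 measured genes, and their levels are given in RPKM, that is, reads per kilobase of exon and per megaread (M) of a library's depth. In the study the factors Pou5f1, Sox2, Klf4 and Myc (OSKM) turned fibroblasts into neural stem cells. RNA was taken during and after the conversion, and from fibroblasts of another strain than the converted cells. Each population had 1 library, so no value has a replicate error and no difference has a p-value.

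The embryonic fibroblasts (MEF) and the induced pluripotent stem cells (iPSC) were of the strain A12 (Mbd3 flox/-). The embryonic stem cells (ESC) were the line v6.5 on MEF feeders. The label of the iPSC library carries the same feeder note with question marks. The day 6 cells and both OSKM neural stem cell (NSC) libraries were B6/129, from a Rosa26-TdTomato B6 female and a Col1a-OSKM 129 male. Day 6 cells came from MEF with a Nanog-CreER reporter that had received dox (doxycycline) and 4OHT up to day 6, and were sorted as tdTomato positive without feeders. In this system Cre under Nanog control marks a cell and its descendants with Tomato once Nanog has been on in the presence of 4OHT. The OSKM NSC were mechanically subcloned and grown without feeders, with 1 library positive and 1 negative for the Nanog-Tomato mark. Primary brain NSC came from BDF2 embryos, given as E12.5 in one label and as E13.5 in another. Strain and population cannot be told apart where both differ. This holds for MEF against day 6, so a rise from MEF to day 6 names a difference between libraries and not a time course.

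Pluripotency rests on a network around Pou5f1, Sox2 and Nanog, and the genes described here are among the many that are active with it and silent in most somatic cells. Dppa5a, Dppa2 and Dppa4 are developmental pluripotency associated genes: Dppa5a encodes a KH-domain protein that binds RNA, and Dppa2 and Dppa4 encode SAP-domain proteins that sit on chromatin. Sall4 and Zscan10 are zinc finger transcription factors, Utf1 is a chromatin-bound protein, L1td1 and Lin28a bind RNA, and Fbxo15 is an F-box protein best known as an early reporter locus of reprogramming. None of them is among the factors that the OSKM transgene carries.

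Depth was recovered from the size of 1 read in the values. It was lowest in Tomato-positive OSKM NSC, at 19 M, and highest in iPSC, at 58 M. Between 13666 and 15083 genes reached 2 RPKM per library. Summed over 9 fibroblast markers, such as Col1a1 and Thy1, the level was 37547 RPKM in MEF, 3993 in ESC, 109 in iPSC and 130 on day 6. Among the neural libraries the sum was 6.91 RPKM in brain NSC, 150 without the Tomato mark and 1950 with it. Summed over 10 NSC markers, such as Nes and Olig2, it lay between 5341 and 11362 RPKM in the NSC libraries and between 12.1 and 63.2 elsewhere. Epithelial markers, summed over 6 genes such as Epcam, stood at 1360 RPKM on day 6, 724 in ESC and 271 in iPSC, and 6 myeloid markers at 2987 RPKM in MEF and at most 166 elsewhere. On day 6 Gm42418, a gene model over ribosomal RNA, held 8.82% of all exon reads added up, and elsewhere it held at most 0.0657%. It was chosen after its values were seen.

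RefSeq promoter windows (build GRCm38.p6) were at hand for 4 of the 9 genes: L1td1, Utf1, Zscan10 and Lin28a. They are shown because these genes, with Sall4, had the day 6 levels nearest to those of the pluripotent libraries. Each sequence is the part of its window upstream of the annotated transcripts, read on the strand of the gene, with GGGCGG (the GC box of Sp1-family factors) in capitals.
L1td1 promoter, plus strand, chr4:98726504-98726733: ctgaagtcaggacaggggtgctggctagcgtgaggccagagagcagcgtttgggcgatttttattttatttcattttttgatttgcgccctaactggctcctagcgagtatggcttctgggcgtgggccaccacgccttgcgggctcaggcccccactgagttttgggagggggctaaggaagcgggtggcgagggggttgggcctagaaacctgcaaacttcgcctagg
Utf1 promoter, plus strand, chr7:139943606-139943788: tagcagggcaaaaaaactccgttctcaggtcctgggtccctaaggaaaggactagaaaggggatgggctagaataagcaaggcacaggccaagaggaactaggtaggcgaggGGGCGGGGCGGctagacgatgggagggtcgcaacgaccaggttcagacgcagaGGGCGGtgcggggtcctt
Zscan10 promoter, plus strand, chr17:23600576-23600825: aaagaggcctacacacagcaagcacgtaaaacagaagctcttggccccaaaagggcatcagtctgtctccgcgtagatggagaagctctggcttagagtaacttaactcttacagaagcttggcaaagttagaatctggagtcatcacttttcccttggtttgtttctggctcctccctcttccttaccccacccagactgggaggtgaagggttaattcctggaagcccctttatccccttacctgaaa
Lin28a promoter, minus strand, chr4:134018842-134019066: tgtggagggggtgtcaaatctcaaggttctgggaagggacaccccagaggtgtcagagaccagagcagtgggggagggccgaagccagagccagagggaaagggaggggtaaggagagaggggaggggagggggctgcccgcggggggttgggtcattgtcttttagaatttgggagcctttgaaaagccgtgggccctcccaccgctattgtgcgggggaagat
The Utf1 stretch holds 3 GC boxes, of which 2 overlap, and the other 3 stretches hold none on either strand. The Lin28a window has a GC box beyond the stretch shown. Over all 32851 promoter windows of 300 bases, 35.7% hold GGGCGG on either strand. None of the 4 windows holds the octamer ATTTGCAT, the E-box CACGTG or the Sox motif AACAATG on either strand, which 1.74%, 7.15% and 3.78% of all windows hold. CpG dinucleotides number 17 in the Utf1 window, 14 in that of L1td1, 10 in that of Lin28a and 4 in that of Zscan10, and the median window has 7. These matches describe letters within the window, and binding was not measured.

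The genes were compared first between fibroblasts and day 6. Of the 9 genes, 8 rose at least 4-fold from MEF to day 6 after 1 RPKM was added to each level. Among all 16154 genes that reached 2 RPKM in either library, 8.23% did so. With 4 RPKM added in place of 1, the rise held for 5 of the 9. The median log2 ratio was 3.84 over the 9 genes and -0.13 over all genes tested. The day 6 levels spread far apart, from 2.44 RPKM for Dppa2 to 354 RPKM for L1td1, although all 9 genes stood below 2 RPKM in MEF. In bulk RNA, fewer cells that express a gene and less RNA per cell cannot be told apart.

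**Figure D1:**
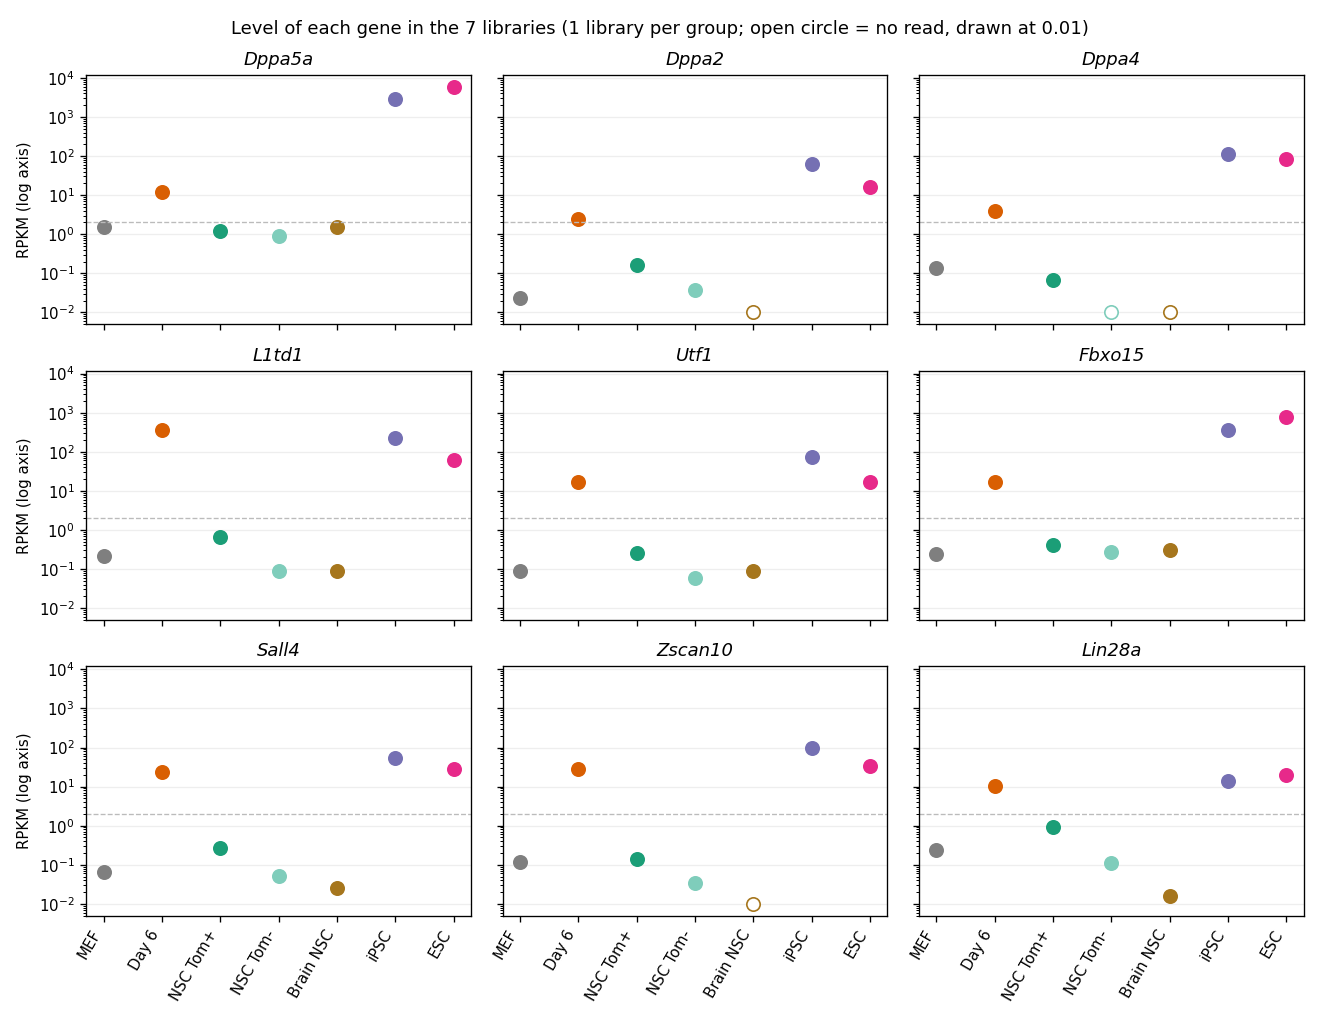
RPKM of each of the 9 genes (log axis) in the 7 libraries, 1 point per library, with the dashed line at 2 RPKM and an open circle where no read was found. All 9 genes lie above 10 RPKM in iPSC and ESC and below 2 RPKM in MEF and in the NSC libraries, and the day 6 points range from 2.44 RPKM for Dppa2 to 354 RPKM for L1td1.

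L1td1 (ENSMUSG00000087166, chromosome 4, 98726734 to 98738480, GRCm38) encodes an RNA-binding protein derived from the first reading frame of a LINE-1 element. Its level was 354 RPKM on day 6, 232 in iPSC, 63.1 in ESC and 0.213 in MEF. The neural cells had 0.679 RPKM with the Tomato mark, 0.0868 without it and 0.0900 in brain NSC. Day 6 was the highest of the 7 libraries, above both pluripotent lines. The reads over its non-overlapping exons gave a ratio of day 6 to MEF of 1659 at equal depth (95% exact interval 1123 to 2563). Such intervals are Clopper-Pearson intervals and cover counting error only. All 8 exons of at least 100 bases were higher on day 6 than in ESC, and 6 of the 8 were higher than in iPSC. The exceptions were the first exon, at 98.1 RPKM on day 6 and 132 in iPSC, and the exon at 98736446 to 98736747, at 155 and 214 RPKM. Some of these exons overlap each other and share reads.

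The transcription factors Sall4 and Zscan10 had lower day 6 levels than L1td1 and another order of the libraries. Sall4 (ENSMUSG00000027547, chromosome 2, 168748332 to 168767943), a zinc finger protein that acts with Pou5f1 and Nanog, stood at 53.2 RPKM in iPSC, 28.3 in ESC, 23.6 on day 6 and 0.0661 in MEF. Its neural levels were 0.271 RPKM with the Tomato mark, 0.0515 without it and 0.0251 in brain NSC. Zscan10 (ENSMUSG00000023902, chromosome 17, 23600856 to 23611019), a SCAN-domain zinc finger protein, stood at 99.7 RPKM in iPSC, 33.2 in ESC, 27.5 on day 6 and 0.116 in MEF. OSKM NSC had 0.137 RPKM with the Tomato mark and 0.0335 without it, and brain NSC had no Zscan10 read. In RPKM as deposited both genes were highest in iPSC, followed by ESC and, close below it, day 6, whereas with libraries scaled to equal totals or to the median of ratios day 6 lay above ESC. The log2 ratio of day 6 to MEF was 4.53 for Sall4 and 4.68 for Zscan10. For Zscan10 the read ratio was 207 (95% exact interval 127 to 362).

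Utf1 and Lin28a also rose. Utf1 (ENSMUSG00000047751, chromosome 7, 139943789 to 139945112), a chromatin protein of pluripotent cells, stood at 75.1 RPKM in iPSC, 16.5 in ESC, 16.5 on day 6 and 0.0906 in MEF. The Tomato-marked OSKM NSC had 0.257 RPKM, the unmarked ones 0.0582 and brain NSC 0.0906. Lin28a (ENSMUSG00000050966, chromosome 4, 134003330 to 134018841), which blocks maturation of the let-7 microRNAs, stood at 19.9 RPKM in ESC, 14.3 in iPSC, 10.3 on day 6 and 0.238 in MEF. It stood at 0.912 RPKM in the Tomato-marked OSKM NSC, 0.112 in the unmarked ones and 0.0158 in brain NSC. Day 6 lay below both pluripotent lines for Lin28a, and for Utf1 it lay at the ESC level and below iPSC. The log2 ratio of day 6 to MEF was 4.01 for Utf1 and 3.19 for Lin28a.

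Fbxo15 and the Dppa genes had the lowest day 6 levels relative to the pluripotent lines. Fbxo15 (ENSMUSG00000034391), the F-box protein gene, stood at 797 RPKM in ESC, 358 in iPSC, 16.9 on day 6 and 0.247 in MEF. Its levels in neural cells were 0.403 RPKM with and 0.265 without the Tomato mark, and 0.309 in brain NSC. Its level on day 6 resembled that of Utf1, but its level in the pluripotent lines was far higher. Dppa4 (ENSMUSG00000058550, chromosome 16, 48283733 to 48294237) stood at 113 RPKM in iPSC, 84.0 in ESC, 3.92 on day 6 and 0.140 in MEF. Of the NSC libraries only the Tomato-positive one held a Dppa4 read, 1 in all. In the others 3 reads would be 0.0760 RPKM (Tomato-negative) and 0.118 RPKM (brain). Dppa2 (ENSMUSG00000072419, chromosome 16, 48303908 to 48319723) stood at 62.4 RPKM in iPSC, 16.4 in ESC, 2.44 on day 6 and 0.0228 in MEF. OSKM NSC had 0.162 RPKM with the Tomato mark and 0.0367 without it, and brain NSC had no read, where 3 reads would be 0.0570 RPKM. Dppa2 was the gene that missed the 4-fold rule against MEF, at a log2 ratio of 1.75. The 1 RPKM added to both sides sets that value, since its 219 reads on day 6 stood against 2 in MEF, a ratio of 107 at equal depth (95% exact interval 29.3 to 890). The Dppa2 and Dppa4 genes lie 9670 bases apart on the same strand.

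Dppa5a (ENSMUSG00000060461, chromosome 9, 78367052 to 78368177) had the highest level of the 9 genes in the pluripotent lines, at 2867 RPKM in iPSC and 5932 in ESC. On day 6 it stood at 12.3 RPKM, while MEF had 1.54 RPKM, brain NSC 1.50, the Tomato-marked OSKM NSC 1.19 and the unmarked ones 0.885. The read ratio of day 6 to MEF was 7.96 (95% exact interval 5.79 to 11.2). Unlike the other 8 genes, Dppa5a had a level near 1 RPKM in each of the 4 somatic libraries, from 14 to 43 reads. In MEF these were spread over its 3 exons at 1.38, 1.46 and 1.74 RPKM. The annotation holds the copies Dppa5b and Dppa5c, which are not among the exons matched here, so whether reads of such copies were counted is uncertain. On day 6 the 3 exons stood at 19.8, 13.1 and 5.73 RPKM from 5′ to 3′, whereas in iPSC the middle exon was the highest, at 2314, 3822 and 2588 RPKM.

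Day 6 was then compared with the pluripotent lines, which asks how far the marker genes had come in cells that had switched on the Nanog reporter. Of the 9 genes, 4 stood at least 4-fold below both iPSC and ESC, where 6.7% of the 16503 genes tested did so. None stood at least 4-fold above both, where 3.47% of genes did. The 4 genes were Dppa5a, Dppa2, Dppa4 and Fbxo15. L1td1 was above both lines, at log2 ratios of 0.61 against iPSC and 2.47 against ESC.

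The day 6 level as a share of the reference differed between the genes by a wide margin. Dppa5a reached 0.429% of its iPSC level and 0.207% of its ESC level, the lowest shares of the 9. Dppa4 reached 3.48% and 4.67%, Dppa2 3.92% and 14.9%, and Fbxo15 4.71% and 2.12% of iPSC and ESC. These 4 shares lay under the medians of 16.6% and 15.8% over the 1282 genes that passed 4-fold over MEF in both lines. Sall4 reached 44.4% of iPSC and 83.3% of ESC, and Zscan10 27.6% and 82.8%. Lin28a reached 72.2% and 51.7%, and Utf1 22.0% and 100%. Scaled to equal totals, Sall4 and Zscan10 were above ESC rather than below, so their order against ESC was not settled. With that scaling 4 of the 9 genes stood above ESC in place of 2. As deposited, 6 Sall4 exons of at least 100 bases were above ESC on day 6 and 4 below. The part of base composition in these shares was not tested. L1td1, at 152% and 561%, was among the 137 of 1282 genes at or above iPSC and the 162 at or above ESC. All 9 genes belong to those 1282, which were 7.44% of the 17239 genes tested for being higher in both lines than in MEF, and none of them was lower, as 9.01% were.

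**Figure D2:**
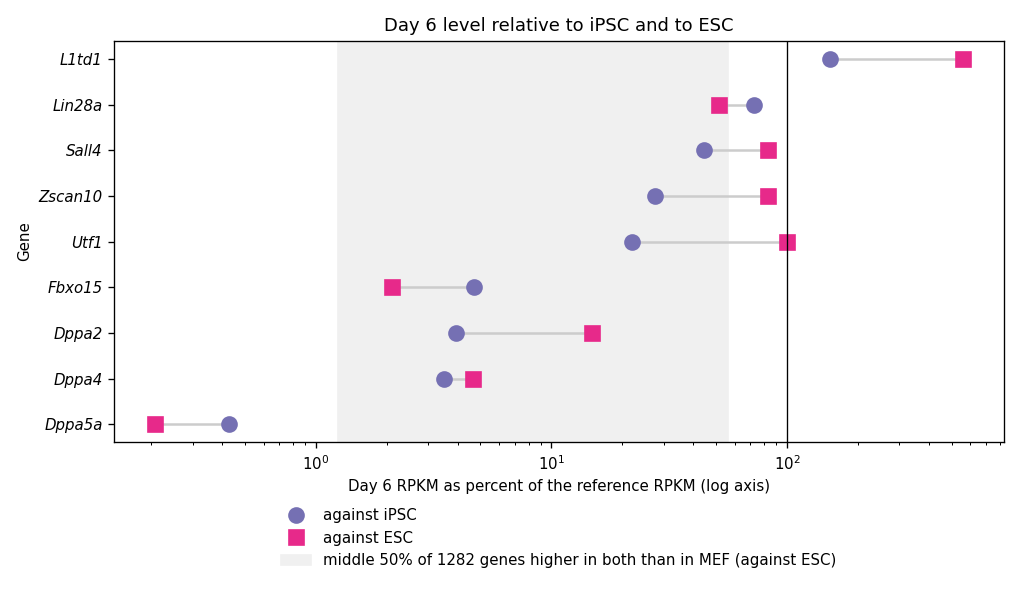
Day 6 RPKM of each gene as a percent of its RPKM in iPSC (circles) and in ESC (squares), on a log axis, with the vertical line at 100%. The shaded band is the middle 50% of 1282 genes against ESC, from 1.25% to 56.2%, and the points run from 0.207% for Dppa5a to 561% for L1td1.

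Among the core factors, Pou5f1 stood at 42.9% of its iPSC level and 62.9% of its ESC level on day 6, and this includes any reads of the transgene. Nanog, which the transgene does not carry, stood at 8.71% and 8.78%, between the Dppa genes and Utf1 in share of iPSC. Of a list of 21 other pluripotency genes, 18 were tested between MEF and day 6. Of these, 14 rose and 1, Klf2, fell at least 4-fold, where 8.23% of all genes rose and 16.1% fell. The median log2 ratio of the 18 was 3.97. Among the 14 were Pou5f1, Sox2 and Klf4, which the transgene carries, and Nanog, whose reporter the day 6 cells were sorted on. The count is therefore not independent of the design. Against both pluripotent lines 12 of the 21 were lower and 0 higher on day 6, where 6.7% of all genes tested were lower and 3.47% higher. The median there was -2.58, where all genes tested had -0.03. The 4 farthest below were Klf2, at -5.97 and -4.91 against iPSC and ESC, Tcl1 at -4.89 and -5.15, Prdm14 at -5.55 and -4.84, and Zfp42 at -5.86 and -4.49. These comparisons share the day 6 library with those of the 9 genes.

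Genes active at the 2-cell stage were looked at because Dppa2 and Dppa4 are known to act upstream of them. Zscan4c, Zscan4d and Zscan4f had no read on day 6, which allows up to 3 reads each. In iPSC they had 38.6, 38.4 and 50.1 RPKM, and in ESC 4.06, 4.25 and 6.39. Of the 11 genes in this list, 6 were tested against the pluripotent lines, and these 3 near-identical copies, whose reads cannot be told apart, were lower on day 6. Of all genes tested there, 6.7% were lower. Of 17 genes of the germ line, where Dppa2 and Dppa4 are also active, 13 of 17 tested were lower on day 6 than in both lines, against the same 6.7%. The exception in direction was Tdrd1, a Tudor-domain gene of the piRNA pathway, at 9.37 RPKM on day 6 against 0.551 in iPSC and 0.341 in ESC. Dazl, a germ cell RNA-binding protein, stood at 0.0812 RPKM on day 6 and at 146 and 246 RPKM in iPSC and ESC. Of 10 genes of the primed epiblast and germ layers, Dnmt3b was the only one tested between MEF and day 6. It rose to 22.7 RPKM, near its 24.1 in iPSC and below its 38.2 in ESC.

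Relatives of the 9 genes did not all share their levels. Ooep, a KH-domain gene whose nearest end lies 7931 bases from Dppa5a, stood at 79.4 RPKM in iPSC, 146 in ESC and 0.356 on day 6, against 0.842 in MEF. Unlike Dppa5a it was not higher on day 6 than in MEF. Khdc3, another KH-domain gene, stood at 0.0105 RPKM on day 6, 8.28 in iPSC and 45.4 in ESC. Sall1, a paralog of Sall4, stood at 2.98 RPKM on day 6, 71.8 in iPSC and 41.8 in ESC, but at 25.7 and 40.8 in the Tomato-positive and Tomato-negative OSKM NSC, where Sall4 was under 0.3. Lin28b, the paralog of Lin28a, was higher on day 6, at 9.85 RPKM, than in iPSC (3.68) and ESC (3.19), with read ratios of iPSC and ESC to day 6 of 0.374 (95% exact interval 0.348 to 0.401) and 0.324 (0.298 to 0.353). Lin28a had the opposite order, with 14.3 RPKM in iPSC and 19.9 in ESC above the 10.3 of day 6. Of 11 genes around Lin28 and let-7, all tested, 3 rose at least 4-fold from MEF to day 6, where 8.23% of all genes tested did: Trim71, Lin28b and Dis3l2, at log2 ratios of 3.17, 2.92 and 2.12. The other 8 did not pass in either direction, and the median log2 ratio of the list was 0.37 against -0.13 over all genes tested.

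The comparison of ESC with iPSC showed that the pluripotent lines also differed in these genes. In RPKM, 6 of the 9 were lower in ESC (Dppa2, Dppa4, L1td1, Utf1, Sall4 and Zscan10) and Dppa5a, Fbxo15 and Lin28a were higher. These directions were the same under the scalings to equal totals, to the median of ratios and by GC bin. The share of all genes that were lower in ESC by any amount was not counted. As deposited, the median log2 ratio was -0.88 over the 9 genes and 0.18 over all genes tested. With equal totals it was -0.10 over all genes tested. Only Utf1, at a log2 ratio of -2.12, passed 4-fold, where 1.29% of 15749 genes were at least 4-fold lower and 4.39% higher in ESC. Dppa2 and L1td1 came next, both at -1.86. With libraries scaled to equal totals 3 of the 9 genes passed, by GC bin 2 did, and with 4 RPKM added in place of 1 none did. Relative to iPSC, the reads in ESC were 0.263-fold for Dppa2 (95% exact interval 0.248 to 0.279), 0.271-fold for L1td1 (0.264 to 0.278) and 0.220-fold for Utf1 (0.204 to 0.237). Dppa5a and Fbxo15 were 2.07-fold (2.05 to 2.08) and 2.23-fold (2.19 to 2.26) higher in ESC.

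Base composition moved with the ratio of these libraries. Over the 136774 exons of any gene with at least 100 bases and 5 RPKM in some library, the median log2 ratio of ESC to iPSC fell from 0.41 in exons of at most 35% GC to -1.05 in exons of 65% to 70% GC, and was less negative again beyond 70%, at -0.79 and, above 75%, -0.51. The median log2 ratio of day 6 to ESC in these exons was -0.445 at 50% to 55% GC. It was 0.105 at 60% to 65% and 1.35 above 75%. GC content was 57.4% for Zscan10, 55.7% for Sall4, 51.9% for Lin28a and 48.0% for L1td1. For Dppa5a, Dppa4, Fbxo15 and Dppa2 it lay between 43.9% and 49.4%. Utf1 has the highest GC content of the 9 genes, 63.5%. Its first exon (68.3% GC) had 34.3 RPKM in iPSC against 1.07 in ESC, and its second exon (58.2% GC) had 120 and 33.4. The coding stretches of 120 bases with the most GC in each exon are shown for this reason, with CpG in capitals (GENCODE M21, plus strand, GRCm38).
Utf1 exon 1, chr7:139944304-139944423, 74.2% GC: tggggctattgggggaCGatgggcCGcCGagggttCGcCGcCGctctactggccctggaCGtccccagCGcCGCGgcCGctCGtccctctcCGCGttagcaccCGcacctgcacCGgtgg
Utf1 exon 2, chr7:139944653-139944772, 67.5% GC: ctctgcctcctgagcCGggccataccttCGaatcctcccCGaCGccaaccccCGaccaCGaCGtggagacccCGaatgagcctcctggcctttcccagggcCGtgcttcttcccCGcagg
The stretch of exon 1 holds 16 CpG and that of exon 2 holds 10. On day 6 the exons stood at 12.7 and 20.8 RPKM, so the equal gene levels of day 6 and ESC hold a higher first exon and a lower second exon on day 6.

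GC-rich exons of Sall4 and L1td1 showed the same order. The Sall4 exon at 168766912 to 168767029 (71.2% GC) had 21.9 RPKM in iPSC against 1.86 in ESC, while the last exon (46.2% GC) had 54.9 and 43.5. The first L1td1 exon (62.6% GC) stood at 132 and 18.7 RPKM, a log2 ratio of -2.75, while its other exons of at least 100 bases lay near the gene as a whole, the last one at -1.76. In Lin28a the order did not go with GC content. Its 5′ exons were lower in ESC, among them those at 134012256 (48.85% GC) and 134009228 (45.65% GC). The exon at 134007948 (56.76% GC) was higher in ESC. So was the last exon (47.69% GC), which holds most of the length of Lin28a, at 22.6 RPKM against 15.3. By contrast all 5 Dppa2 exons of at least 100 bases (39.8% to 55.9% GC) were lower in ESC, at -2.10 to -1.51, and all 8 Fbxo15 exons were higher, at 1.08 to 1.20. After scaling each library within bins of GC content, an alternative chosen after the data were seen, Dppa2 at -2.19 and L1td1 at -2.14 passed 4-fold and Utf1 at -1.89 did not. The part of base composition in these differences was not tested further. Nor was that of the feeders, although 7 of 9 fibroblast markers were at least 4-fold higher in ESC.

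**Figure D3:**
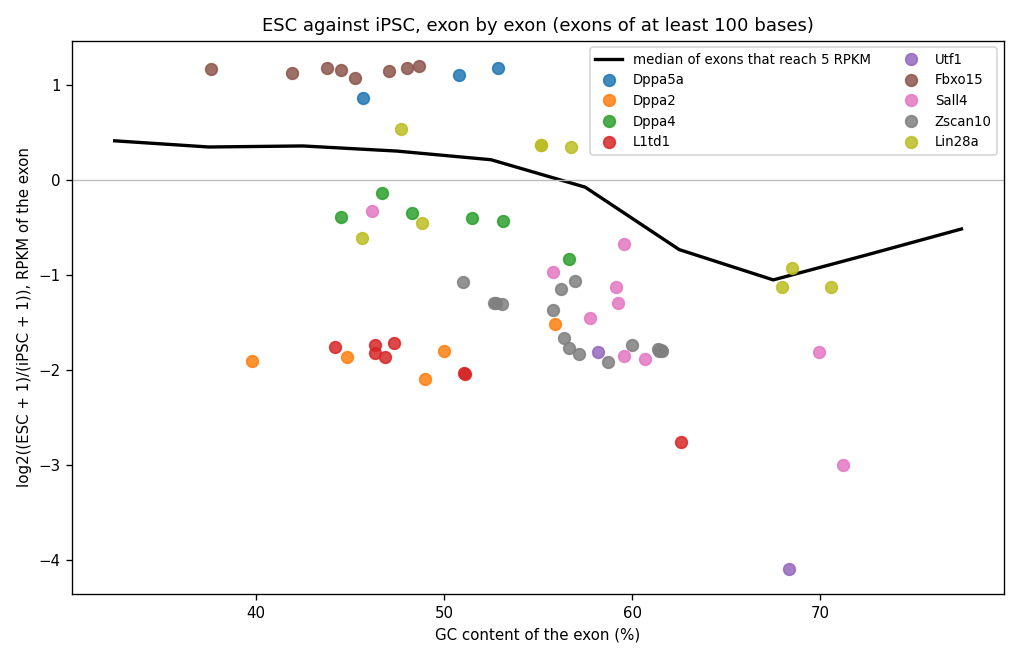
Log2 ratio of ESC to iPSC for exons of at least 100 bases of the 9 genes (points) against the GC content of the exon, with the median per GC bin of the exons of any gene with at least 100 bases and 5 RPKM in some library as the black line. The line falls from 0.41 to -1.05 at 65% to 70% GC and rises again beyond it, the Utf1 first exon is the lowest point at -4.09, and the Fbxo15 exons lie together between 1.08 and 1.20.

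The converted neural stem cells were compared with day 6 and with brain NSC. Of the 9 genes, 8 were at least 4-fold lower in both OSKM NSC libraries than on day 6, where 5.23% of 16319 genes were lower and 8.54% higher. The day 6 cells were sorted as tdTomato positive, so the Tomato-negative NSC are not taken as their descendants. Dppa2 did not pass, at log2 ratios of -1.57 and -1.73, and with 4 RPKM added 5 of the 9 passed. L1td1 had the greatest difference, at -7.72 in Tomato-positive and -8.35 in Tomato-negative cells, or 0.192% and 0.0245% of its day 6 level. Its Tomato-negative level of 0.0868 RPKM was near the 0.0900 RPKM of brain NSC. All 9 genes stood below 2 RPKM in the NSC libraries, so none entered the comparisons within the neural cells by the 4-fold rule. Of all genes tested there, 2.77% were higher and 0.881% lower in Tomato-positive than in Tomato-negative cells, and 1.97% were higher and 1.1% lower in both than in brain NSC. Of the 21 other pluripotency genes, 16 were tested and 11 were at least 4-fold lower in both OSKM NSC libraries than on day 6. Among the 11 were Pou5f1 and Klf4, which the transgene carries, and Nanog, whose reporter the day 6 cells were sorted on.

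Read counts could still be set side by side at this low level. In RPKM as deposited, all 9 genes were higher in Tomato-positive than in Tomato-negative OSKM NSC. Scaled to equal totals this held for 8, since Dppa5a then turned to a ratio of 0.998. Over all genes tested, the median log2 ratio was itself 0.19 as deposited and -0.23 with equal totals. The share of all genes that were higher by any amount was not counted. Lin28a had 68 reads in Tomato-positive and 16 in Tomato-negative cells, a ratio of 9.39 at equal depth (95% exact interval 5.39 to 17.4). L1td1 had 32 and 10 reads, a ratio of 7.07 (3.39 to 16.1), and Sall4 had 30 and 14, a ratio of 4.74 (2.44 to 9.67). These 3 intervals leave out 1. For Dppa5a, Dppa2, Utf1, Fbxo15 and Zscan10 the intervals hold 1, and Dppa4 had 1 read against 0. A difference was therefore not detectable at this depth for these 6 genes.

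The levels in Tomato-positive cells were small. They were 1.19 RPKM for Dppa5a, or 9.68% of day 6, 0.912 RPKM for Lin28a, or 8.85%, and 0.162 RPKM for Dppa2, or 6.63%. The other 6 genes stood between 0.192% (L1td1) and 2.39% (Fbxo15) of day 6. For Dppa5a the level was below MEF (1.54 RPKM) and brain NSC (1.50 RPKM), neither of which had passed through day 6. Every other gene stood above brain NSC in RPKM, Fbxo15 at 0.403 against 0.309. Against brain NSC, Lin28a had a read ratio of 48.3 (95% exact interval 12.9 to 407) in Tomato-positive and 5.14 (1.21 to 46.1) in Tomato-negative cells, from 2 reads in brain NSC. Sall4 in Tomato-positive cells was at 8.53 (3.28 to 28.2) times brain NSC, from 5 reads there, and L1td1 had 7 reads in brain NSC. Outside the 9 genes, Nanog had 225 and 116 reads, a ratio of Tomato-positive to Tomato-negative of 4.29 (3.41 to 5.41). Lin28b had 311 and 61, a ratio of 11.3 (8.54 to 15.1), with no read in brain NSC.

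Markers of other cells differed between the same OSKM NSC libraries. The fibroblast marker sum of 1950 RPKM in Tomato-positive cells stood against 150 in Tomato-negative cells, with 7 of 9 markers at least 4-fold higher and none at 0. The epithelial marker sum stood at 99.7 and 8.79 RPKM over 6 markers, none of them at 0. Of these, 4 were tested and 2 were at least 4-fold higher, the keratins Krt8 (57.8 against 3.05 RPKM) and Krt18 (34.8 against 2.62). The myeloid sum stood at 19.6 and 11.1 RPKM over 6 markers, with 1 of 3 tested higher. Of 10 genes of the primed epiblast and germ layers, 5 were tested and 2 were at least 4-fold higher, where 2.77% of all genes tested were. They were the mesoderm factor T (brachyury), at 115 and 12.6 RPKM, and the endoderm factor Foxa2, at 7.48 and 0.727. The other 3 passed in neither direction. Of 11 genes around Lin28 and let-7, 10 were tested and 1 was higher, the let-7 target Hmga2, at 157 and 24.5 RPKM. Whether cells with any of these markers hold part of the reads of Lin28a, L1td1 and Sall4 was not tested.

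**Figure D4:**
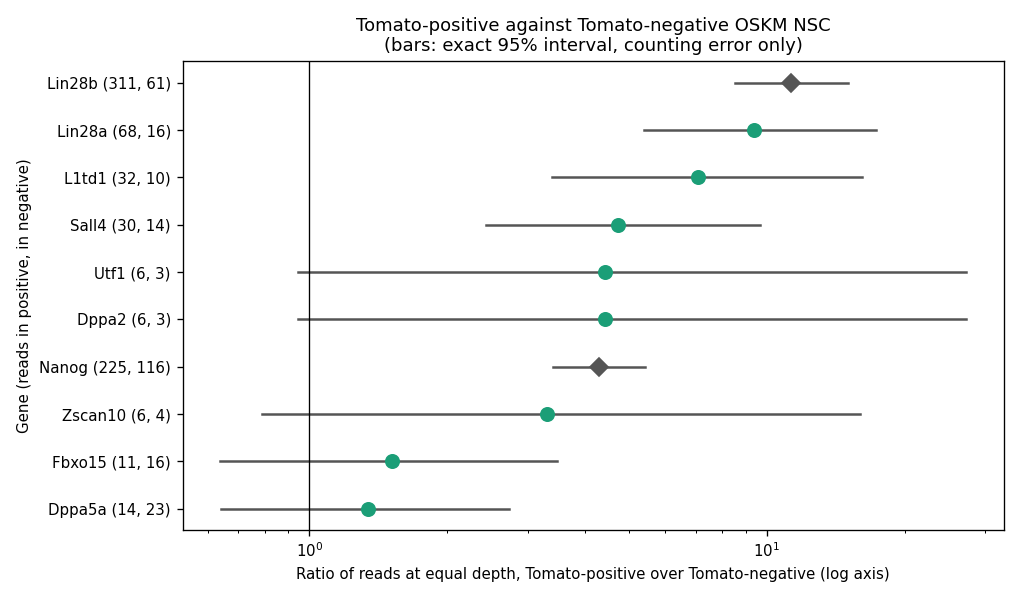
Ratio of reads at equal depth of Tomato-positive to Tomato-negative OSKM NSC (log axis) with its exact 95% interval, for the genes with reads in both libraries; circles are the marker genes, diamonds Nanog and Lin28b, and the numbers in brackets are reads. The intervals of Lin28a, L1td1 and Sall4 lie above 1 and the other marker genes' intervals cross it.

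Across the 7 libraries the levels of the 9 genes were correlated. Pearson's r of log2(RPKM + 1) lay between 0.74 (Dppa5a with L1td1) and 0.998 (Sall4 with Zscan10) over the 36 pairs. These are descriptions over 7 libraries that share the contrast of pluripotent with somatic cells. Among day 6, iPSC and ESC the order of the libraries differed between the genes. Among 12293 named genes that reached 10 RPKM in some library, those most like each gene were taken. Dppa5a was nearest to Lrriq4, Fmr1nb and Arl14epl, with r of at least 0.999. Dppa4 was nearest to Gdf3 (0.999), Tex19.1 (0.999) and Nlrp4c (0.998), and Dppa2 to Ceacam20 (0.999), Nodal (0.998) and Mep1b (0.995). Fbxo15 was nearest to Ly6g6e, Rhox6 and Camsap3. The genes with the higher day 6 shares of their iPSC and ESC levels had other neighbours. L1td1 was nearest to Slc15a1 (0.997), which stood at 43.9 RPKM on day 6 and 23.1 in iPSC, to Zfp296 (0.994) and to Grb7 (0.994). Zscan10 was nearest to Platr15 (0.999), Tnfrsf8 and Mst1, Utf1 to Eras (0.999), Tnfrsf8 and Platr15, and Sall4 to Gpa33, Platr15 and Pou5f1. Lin28a was nearest to Tfap2c (0.997), Rnf125 and Aqp3.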

How the data were processed

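Libraries were described as poly RNA-Seq in the series' design text and were prepared with a TruSeq kit per the labels' protocols. The authors deposited a table of RPKM, with 1 value for each exon and library. Its making involved TopHat2 2.0.10, Bowtie, bedtools, CASAVA 1.8.2 and the build mm10, per the submitters' processing notes, which give no roles. Exon IDs were matched to GENCODE M21 (270168 of 279252, 96.7%), and a gene's value is the length-weighted mean of its exons. Strand of the counting is not given in the sources used here, so overlapping genes cannot be told apart.

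Depth per library came from the steps of RPKM times exon length, which were whole reads within 0.01 read plus 1e-05 of the value for 96.3% to 96.5% of values. This gave 58 M for iPSC, 41 M for ESC, 46 M for day 6 and 45 M for MEF, and 19 M, 42 M and 27 M for the Tomato-positive, Tomato-negative and brain NSC. Reads were summed over a set of non-overlapping exons of each gene. Intervals are 95% exact binomial intervals of the read ratio, printed only where they contain the RPKM ratio. A value of 0 allows 3 reads.

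Genes were compared as log2((a + 1)/(b + 1)), tested from 2 RPKM in any compared library and counted at 4-fold. With 2 libraries on a side every pair had to pass. There were 7 comparisons, and no p-value is possible. The rules were run on simulated reads with counting error only, in which just genes with MEF levels above those of the 9 markers were changed. That run therefore does not cover the 9 markers. The marker genes and the 10 gene lists were chosen with earlier results of these data known, so the lists are no independent evidence. The genes named are the 9 markers, Pou5f1 and Nanog, the 3 genes most correlated with each marker, and up to 4 genes of each list by log2 ratio. Dazl, Tdrd1, Sall1, Khdc3, Ooep, Lin28b, T and Hmga2 come from those lists, some chosen after their values were seen. Python 3.11.15, pandas 2.3.3, numpy 2.4.6 and scipy 1.17.1 were used.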

Additional observations from a re-analysis of the deposited data

How the results depend on the processing

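No paired analysis was possible because each group has 1 library. Alternatives were scaling (equal totals, median of ratios, and GC bins, the last added after the data were seen), a pseudocount of 0.25 or 4, no floor or one at 0.4 or 8 RPKM, the median exon, the highest exon, exons free of overlap, and each reference library alone. Of 218 counts of genes past 4-fold under an alternative, 187 stayed within 1.5 times the reported count and 31 did not. Of 774 values of single genes, 601 kept their side of 4-fold and stayed within the counting interval. The other 173 were counted as moved, and none that passed 4-fold changed sign. The 173 include the day 6 share of each of the 9 genes with iPSC in place of ESC as the reference, which was counted as moved without that check. Of the 109 counts of the 9 genes, 6 moved. With a pseudocount of 4, 5 genes rose from MEF to day 6, 5 were lower in OSKM NSC than on day 6, and 0 were lower in ESC than in iPSC. That last count was 3 with equal totals and 2 with GC bins, and against ESC alone 1 gene (L1td1) was at least 4-fold higher on day 6.

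Counts over all genes moved as follows. With a pseudocount of 4 they were 755 (higher on day 6 than in MEF), 305 and 505 (higher and lower than in both pluripotent lines), 717 (both lines higher than MEF), 353 and 77 (ESC higher and lower than iPSC), 496 (lower in OSKM NSC than on day 6), 172 (Tomato-positive higher than Tomato-negative) and 99 (OSKM NSC higher than brain NSC). With 0.25 they were 1701 (day 6 lower than both lines), 359 (ESC lower), 658 (Tomato-positive higher) and 639 (OSKM NSC higher than brain NSC). With the highest exon they were 2223 and 924 (day 6 higher than MEF and than both lines), 1149 and 350 (ESC higher and lower), 723 (Tomato-positive higher) and 537 (OSKM NSC higher than brain NSC), and with the median exon 343 (ESC lower). Day 6 was higher than iPSC alone in 1022 genes and lower than ESC alone in 2028, ESC alone was higher than MEF in 1933, Tomato-negative cells alone were lower than day 6 in 1330 and Tomato-positive cells alone higher than brain NSC in 1083.

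Equal totals moved the median log2 ratio of all genes by -0.28 for ESC against iPSC, where the share of higher among all calls went from 77.3% to 66.0%, and by -0.42 for Tomato-positive against Tomato-negative, where it went from 75.9% to 54.7%. In comparisons with 2 libraries on a side, the median given is that of Tomato-positive cells or iPSC and the share is that of calls made in both libraries. Median-of-ratios scaling moved the median by -0.47 for OSKM NSC against day 6 (62.0% to 48.3%), by -0.27 for iPSC and ESC against MEF (45.2% to 35.2%) and by -0.23 for Tomato-positive against Tomato-negative (75.9% to 63.7%). GC bins moved it by -0.54 for OSKM NSC against day 6 (62.0% to 43.6%). For Dppa5a, 3 reads equal 0.255 RPKM in Tomato-positive OSKM NSC and between 0.0836 and 0.180 RPKM in the other libraries.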
